A study of Mus musculus with 36 samples.

Results

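A set of 9 genes of the pathway that carries cytokine signals to the nucleus was followed through the chromatin accessibility of mouse CD4 T cells: the transcription factor genes Stat3, Stat4, Stat5a, Stat5b and Stat6 and the feedback inhibitor genes Socs1, Socs2, Socs3 and Cish. A peak was counted as theirs when the protein-coding transcription start site (TSS) nearest to its midpoint belonged to one of them or when it overlapped one of their gene bodies (GENCODE M39, GRCm39). This gave 91 of 71509 peaks, or 0.127%. Of these, 79 were nearest to a TSS of the 9 genes and 12 only overlapped a gene body. Stat4 had 22 peaks, Socs1 20, Stat3 16, Stat5a 10, Stat5b 9, Socs2 and Socs3 7 each, Stat6 3 and Cish 2, and 5 peaks between Stat3 and Stat5a were counted under both. Some peaks lay in or near other genes as well, since 10 of the 20 Socs1 peaks were in Clec16a and the Socs1 promoter peak also covered the TSS of Tnp2.

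The libraries came from ATAC-seq, an assay of where a transposase can reach the DNA. There were 36 of them, 3 in each of 12 groups, from T cells with or without the heterochromatin proteins HP1α or HP1γ. In the HP1α line a floxed Hp1a allele had been deleted in the whole body with CMV-cre, and Hp1a+/+ littermates were the wild type (WT). In the HP1γ line floxed Hp1g was deleted in T cells with Cd4-cre, and littermates with the floxed allele but no Cre were the WT. Each knockout (KO) and its WT were profiled as naive CD4+ splenocytes, as conventional T cells (Tconv) recovered from irradiated C57BL/6 hosts (C57BL/6 J or CD45.1+ B6 in the study's methods) 3 weeks after a graft of mixed C57BL/6 and semi-allogeneic B6D2F1 bone marrow, and as Tconv recovered from such hosts that had also been given expanded WT regulatory T cells (Treg). All Tconv were Vβ6+ cells sorted from the spleen and so show T cells of one receptor family. The labels do not say whether replicates of a group came from separate animals, and the p-values below measure the spread between libraries, which may be technical.

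As background, a cytokine that binds its receptor activates Janus kinases (JAK), which phosphorylate STAT proteins, and these pair, enter the nucleus and bind the palindrome TTCNNNGAA. In CD4 T cells STAT4 relays interleukin-12 and drives Th1 genes, STAT6 relays interleukin-4, STAT3 relays interleukin-6, interleukin-21 and interleukin-23, and STAT5A and STAT5B relay interleukin-2 and interleukin-7. CIS (encoded by Cish) and the SOCS proteins are made in response to STAT activity and shut the receptors down again.

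Library depth ranged from 1.49 to 96.8 M reads in peaks, counted in units of 1e6 (M), with a median of 54.8 M, and was lowest in the 6 HP1α libraries with Treg (1.49 to 50.7 M), of which the study left out 3. All HP1γ libraries held at least 19.4 M. Promoters of all 6 CD4 T cell markers carried a peak, and none of 4 B cell and 2 NK cell markers did. Promoters of 1 of 2 CD8 and 3 of 5 myeloid markers had one, but not those of Lyz2 and Csf1r. All 3 Treg markers (Foxp3, Ikzf2 and Il2ra) had one too. Peaks were merged over samples, so having one does not measure purity. The Cd8b1 promoter peak held 19.8 to 24.1 CPM (counts scaled to 1e6 reads in peaks) per kb in naive groups. In Tconv groups, with or without Treg, it held 1.79 to 7.06. The peak at the Cd4 promoter held 511 to 730 CPM in the 9 HP1γ KO libraries, against 80.3 to 119 in the 9 HP1γ WT libraries and 56.1 to 109 in the HP1α libraries. The HP1γ KO cells carry the Cd4-cre transgene, and the reads of that promoter in the transgene and in the genome cannot be told apart. The accessibility of the targeted genes was no check of their deletion. At the peak of Cbx3, which encodes HP1γ, KO minus WT on the log2 scale was 0.02 for naive cells, 0.02 for Tconv and 0.11 for Tconv with Treg (adjusted p = 0.97, 0.93 and 0.22). At a low peak of Cbx5, which encodes HP1α, it was -0.08, -0.88 and -0.48 (adjusted p = 1.0, 0.94 and 0.82). In bulk cells, fewer cells with an open site and a less open site in each cell cannot be told apart.

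Levels below are CPM in replicates 1, 2 and 3. A peak was called when the adjusted p (edgeR quasi-likelihood test, Benjamini-Hochberg over all peaks) was under 0.05 and the log2 fold change was above 1 or below -1. The share of all peaks called is given as the background, beside the first count in each comparison.

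Tconv were first compared with naive cells of the same genotype. In HP1γ WT, Tconv exceeded naive cells at 36 of the 91 peaks and lay below them at 14 (called), against 24.5% and 22.0% of all peaks, and in HP1α WT at 36 and 12, against 24.9% and 17.5%. The KO cells gave 31 higher and 13 lower in the HP1γ line (background 22.4% and 20.6%) and 33 higher and 14 lower in the HP1α line (23.5% and 19.0%). The median log2 fold change of the 91 peaks was 0.48 in HP1γ WT, where that of all peaks was 0.08, and 0.18 in HP1α WT, where it was -0.03. Socs2, Cish and Stat4 held most of the gains. All 7 Socs2 peaks were called higher in HP1γ WT and in HP1α WT, as were 15 of 22 Stat4 peaks in each line and both Cish peaks in HP1γ WT, of which 1 was called in HP1α WT. Losses were called at peaks of Stat3, Stat5a and Stat5b in both lines, beside gains at other peaks of Stat3 and Stat5a.

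**Figure D1:**
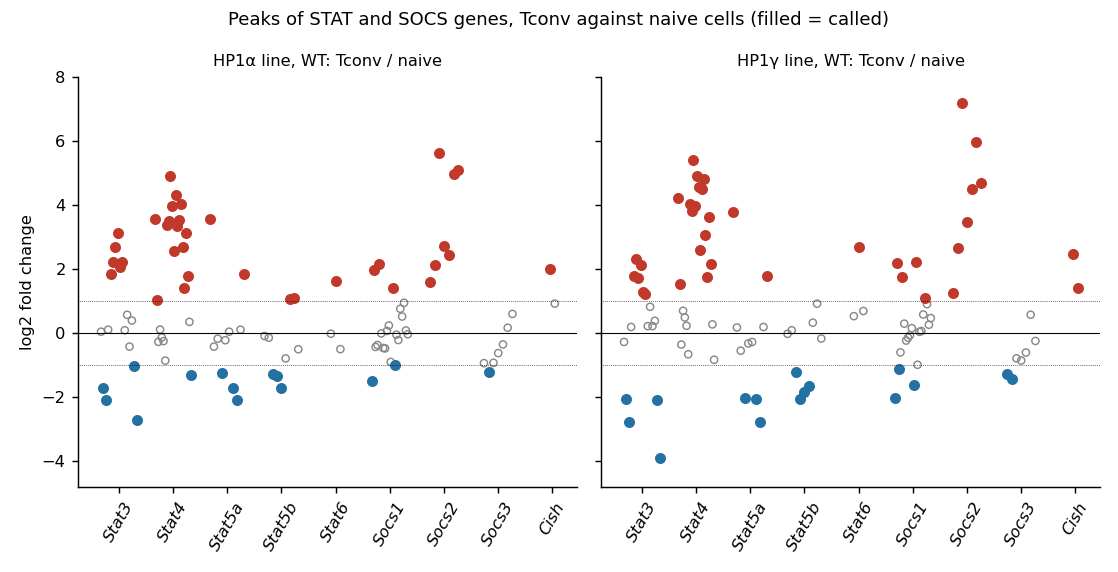
Log2 fold change of each peak between Tconv and naive cells (vertical axis) by gene (horizontal axis), in WT cells of the HP1α line (left) and the HP1γ line (right). Each point is a peak, filled where called (red higher, blue lower), dotted lines mark a log2 fold change of 1 and -1, and all 7 Socs2 points are filled red in both panels.

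Cish and Socs2 are the feedback genes most closely tied to STAT5, and both have closely spaced STAT palindromes near their start. Pairs of TTCNNNGAA within 30 bases were found in 150 of all 71509 peaks (0.21%) and in 2 of the 91, the promoter peaks of these 2 genes. A wide peak has more room for a pair, and the share was not matched for width. The Cish peak is 16490 bp wide and the Socs2 peak 5230 bp, where the median of all peaks is 750 bp. The pairs are shown because none of the other 89 peaks held one. Palindromes are in capitals, on the plus strand of GRCm39, and all pairs lie in annotated exons. The letters read the same on both strands, so a site counts once.
Cish, chr9:107173858-107173877: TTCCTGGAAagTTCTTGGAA
Cish, chr9:107173963-107173988: TTCTAGGAAgatgaggcTTCCGGGAA
Socs2, chr10:95252766-95252785: TTCCAGGAActTTCCAGGAA
Single palindromes were common. They occurred 64 times in the 91 peaks, or 0.409 per kb, against 0.309 per kb over all peaks, and the central 300 bases held one in 10 of 91 (11%) against 8.89% of all peaks. In the RefSeq promoters (GRCm38.p6, 250 bases before to 50 after the start), 8 of the 9 genes were matched and Socs2 was not. Among those, Cish held 2 palindromes and Socs3 1, the most in any promoter of the gene, where 8.30% of 32851 promoters held any and 0.457% held 2 or more. In the 250 bases before the canonical GENCODE TSS (GRCm39), Socs3 held 1 and each of the other 8 genes, Cish and Socs2 included, held 0. A match of letters does not show that a STAT protein binds.

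The Cish promoter peak (chr9:107170961-107187450) covered the whole gene. It held 83.0, 86.9 and 83.0 CPM in HP1γ WT naive cells and 429, 501 and 428 CPM in HP1γ WT Tconv, a 5.61-fold gain (log2 fold change 2.49 ± 0.12, SE, adjusted p = 6.9e-12). In the HP1α line WT naive cells held 96.6, 77.6 and 76.4 CPM and WT Tconv 386, 304 and 278 CPM (2.02 ± 0.16, adjusted p = 7.5e-09). No library of Tconv overlapped one of naive cells in either line.

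Socs2 encodes an inhibitor of growth hormone and other receptor signals. Its promoter peak (chr10:95250101-95255330) rose from 21.0, 18.9 and 17.8 CPM in HP1γ WT naive cells to 112, 140 and 100 CPM in Tconv (2.67 ± 0.16, adjusted p = 5.0e-11), a 6.38-fold gain. In HP1α WT it rose from 26.9, 17.2 and 18.1 CPM to 106, 69.3 and 79.6 CPM (2.14 ± 0.21, adjusted p = 1.2e-07). Upstream lay 5 peaks that were close to empty in naive cells. Summed, they held 0.598 to 1.39 CPM in the 3 HP1γ WT naive libraries and 26.7, 85.5 and 44.3 CPM in HP1γ WT Tconv, and 0.831 to 1.13 CPM against 15.8 to 24.1 CPM in HP1α WT.

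The strongest of these, at -22.2 kb from the TSS between genes (chr10:95274351-95276030), held 0.448, 0.204 and 0.0733 CPM in HP1γ WT naive cells, from 6 to 29 reads, and 17.2, 50.6 and 29.5 CPM in Tconv. The log2 fold change was 7.19 ± 0.66 (adjusted p = 1.3e-08), and in HP1α WT it was 5.64 ± 0.28 (adjusted p = 8.0e-11). Its central region is printed because the HP1γ comparison below turns on this peak. It holds neither TTCNNNGAA nor TGANTCA, the palindrome of the activation factor AP-1, which was searched as well. Plus strand, GRCm39:
chr10:95275041-95275340: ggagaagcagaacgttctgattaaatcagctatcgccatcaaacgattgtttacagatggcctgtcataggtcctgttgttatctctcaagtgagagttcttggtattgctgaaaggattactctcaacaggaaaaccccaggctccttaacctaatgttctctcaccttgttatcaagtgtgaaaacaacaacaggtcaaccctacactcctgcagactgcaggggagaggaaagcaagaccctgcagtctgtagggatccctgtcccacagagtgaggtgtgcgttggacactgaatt
These letters bear on this window alone, and other bases of the peak are not shown.

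Stat4 gained accessibility along most of its body, and its promoter peak was not called. The promoter peak (chr1:52046851-52052630) held 72.4, 72.6 and 74.9 CPM in HP1γ WT naive cells and 91.3, 124 and 128 CPM in Tconv (0.70 ± 0.14, adjusted p = 0.00017), under the threshold on size, and in HP1α WT the value was 0.12 ± 0.16. Both peaks from -11.1 to -9.09 kb and all 13 peaks from 27.1 to 77.3 kb past the TSS were called higher in WT cells of both lines, and none of the 4 peaks from 2.34 to 14.1 kb was. An intron peak at 32.0 kb (chr1:52077971-52080740) went from 4.12, 3.70 and 3.94 CPM to 42.3, 57.7 and 59.9 CPM in HP1γ WT (3.82 ± 0.24, adjusted p = 1.1e-10). The intron peak at 44.7 kb (chr1:52091291-52092850) had the largest gain of the gene, from 0.247, 0.502 and 0.378 CPM to 11, 17.4 and 19.3 CPM (5.42 ± 0.43, adjusted p = 1.9e-09). At the far 3' end a peak in an exon at 92.5 kb went the other way, with -1.30 ± 0.15 (adjusted p = 1.4e-06) in HP1α WT and -0.83 ± 0.13 in HP1γ WT, the latter not called.

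The part of the 44.7 kb peak that holds most of the searched letters is shown, with a STAT palindrome and an AP-1 palindrome in capitals. It was picked for these letters, and the central 300 bases of the same peak hold neither. For scale, AP-1 palindromes stood in the central 300 bases of 13.0% of all peaks and of 9.89% of the 91. Plus strand, GRCm39, intron of Stat4:
chr1:52091641-52091940: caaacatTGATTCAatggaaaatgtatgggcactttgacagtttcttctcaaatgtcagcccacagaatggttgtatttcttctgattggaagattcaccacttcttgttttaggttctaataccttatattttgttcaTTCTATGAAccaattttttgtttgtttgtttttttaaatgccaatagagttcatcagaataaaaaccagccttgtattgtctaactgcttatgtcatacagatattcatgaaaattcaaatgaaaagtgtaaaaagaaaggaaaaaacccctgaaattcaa

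Stat3 showed gains inside the gene and losses at both ends. The 6 peaks from 18.1 to 41.1 kb past the TSS were called higher in WT cells of both lines, with log2 fold changes of 1.23 to 3.12. Upstream, the peak at -12.8 kb (chr11:100842601-100843840) fell from 27.2, 24.0 and 27.3 CPM in HP1γ WT naive cells to 1.78, 1.46 and 1.78 CPM in Tconv (-3.90 ± 0.16, adjusted p = 1.2e-12), and in HP1α WT from 24.0, 10.3 and 11.3 CPM to 1.74, 2.73 and 4.12 CPM (-2.70 ± 0.53, adjusted p = 0.00028). An intron peak at 47.8 kb (chr11:100781851-100783470), which is nearer to the TSS of Stat5a and was counted under both genes, fell from 32.8, 31.8 and 33.3 CPM to 5.38, 4.63 and 3.42 CPM in HP1γ WT (-2.78 ± 0.16, adjusted p = 4.6e-11). The Stat3 promoter peak differed little, with 0.23 ± 0.07 in HP1γ WT and -0.41 ± 0.14 in HP1α WT, opposite in sign and not called in either.

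**Figure D2:**
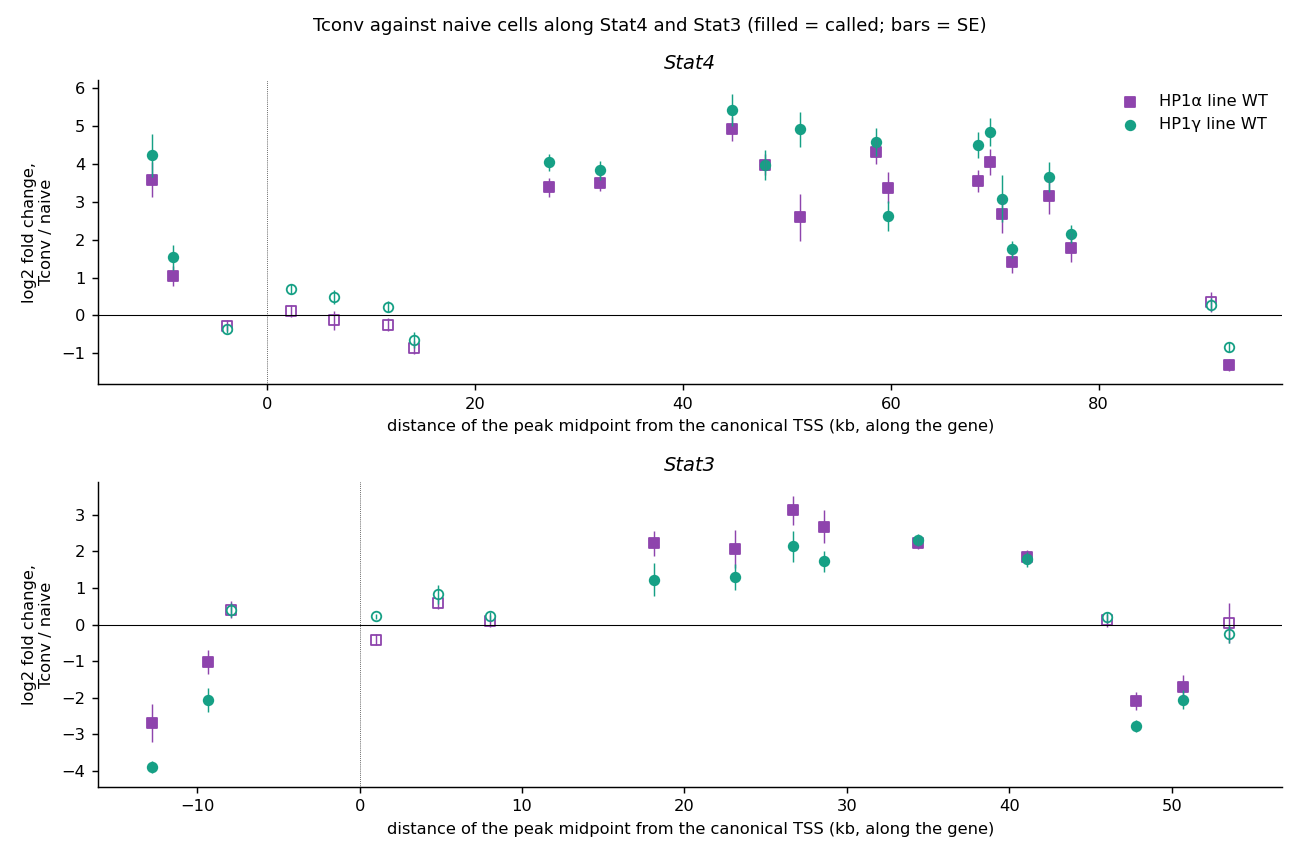
Log2 fold change between Tconv and naive WT cells (vertical axis, bars are SE) against the distance of each peak's midpoint from the canonical TSS in kb (horizontal axis), for Stat4 (top) and Stat3 (bottom). Squares are the HP1α line and circles the HP1γ line, filled where called, and the Stat4 points from 27.1 to 77.3 kb are filled and above 0 in both lines.

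Next to the start of Stat5a, a peak at -1.16 kb (chr11:100748501-100749540), which overlaps an exon of the long non-coding gene Gm72578, rose from 0.772, 0.706 and 0.781 CPM to 8.65, 11 and 10.7 CPM in HP1γ WT (3.80 ± 0.26, adjusted p = 3.5e-10) and from 0.849, 0.831 and 0.783 CPM to 9.99, 8.85 and 7.25 CPM in HP1α WT (3.57 ± 0.22, adjusted p = 3.9e-10). The Stat5a promoter peak itself had 0.18 ± 0.10 and -0.41 ± 0.15. Stat5b, whose product is close kin to STAT5A, lost accessibility at a TSS inside the gene 29.2 kb past the canonical one (chr11:100708731-100715960), from 152, 152 and 152 CPM to 67.3, 65.1 and 58.1 CPM in HP1γ WT (-1.20 ± 0.11, adjusted p = 1.0e-08). Stat6 had 1 called peak, in an exon at 12.2 kb, which rose from 1.70, 1.29 and 1.34 CPM to 9.49, 9.0 and 8.35 CPM in HP1γ WT (2.71 ± 0.22, adjusted p = 2.4e-09), chosen after its values were seen.

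Socs1 and Socs3 encode inhibitors of interferon and interleukin-6 family signals. Of the 20 Socs1 peaks 4 were called higher and 3 lower in HP1γ WT (background 24.5% and 22.0%), and their median was 0.12, against 0.08 over all peaks. The most significant loss was at 91.2 kb downstream in Clec16a (chr16:10512241-10513050), from 9.49, 10.6 and 9.68 CPM to 2.67, 2.08 and 2.18 CPM (-2.03 ± 0.15, adjusted p = 1.0e-09). Of the 7 Socs3 peaks none was called higher, and 2 were called lower in HP1γ WT (background 22.0%) and 1 in HP1α WT (17.5%). The counts of both genes stood near or below the shares of all peaks, and nothing particular to Socs1 or Socs3 is read from them.

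Across the 12 groups, the promoter peaks fell into those of Socs2 and Cish and those of the other 7 genes. Per length, the mean level of the Socs2 promoter ranged from 3.63 CPM per kb in HP1α KO naive cells to 22.4 in HP1γ WT Tconv, a range of 2.62 on the log2 scale, and that of Cish from 5.07 in HP1α WT naive cells to 27.5 in HP1γ WT Tconv, a range of 2.44. The ranges of the other promoters were 0.80 to 0.99 on the log2 scale, their levels lay between 8.83 and 42.3 CPM per kb, and no comparison called any of them. All 7 had their lowest mean in HP1α WT Tconv with Treg, the group with the fewest reads. By Pearson correlation of log2 CPM over the 12 group means, among 12506 peaks at a TSS, the promoters most like Socs2 were those of Gcnt2 (0.988), Gm45717 and Ifitm2 (0.987, one peak) and Ltb4r1 (0.984). Those most like Cish were Gcnt2 (0.989), Klrg1 (0.988) and Sema4d (0.987), and those most like Socs3, the next in range, were Celf2 (0.965), Samd11 (0.952) and Sub1 (0.949). These points share libraries and depth, and the values are descriptions.

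The loss of HP1γ was next compared with its WT in each condition, the question being what the protein does to chromatin in the presence and absence of Treg. In naive cells no peak of the 9 genes was called, where 100 of all peaks were (0.14%); 3 of the 91 had an unadjusted p under 0.05, where 8.98% of all peaks did, and DESeq2 called 1. In Tconv, 4 peaks were called lower and none higher (background 1.66% and 1.69%), and all 4 were Socs2 peaks upstream of the gene. With Treg, 2 Socs2 peaks were called lower, and 2 Stat3 and 2 Stat4 peaks were called higher (background 5.38% and 6.48%). The median log2 fold change of the 91 peaks was 0.05 in Tconv and 0.02 with Treg, against 0.02 and -0.02 over all peaks.

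**Figure D3:**
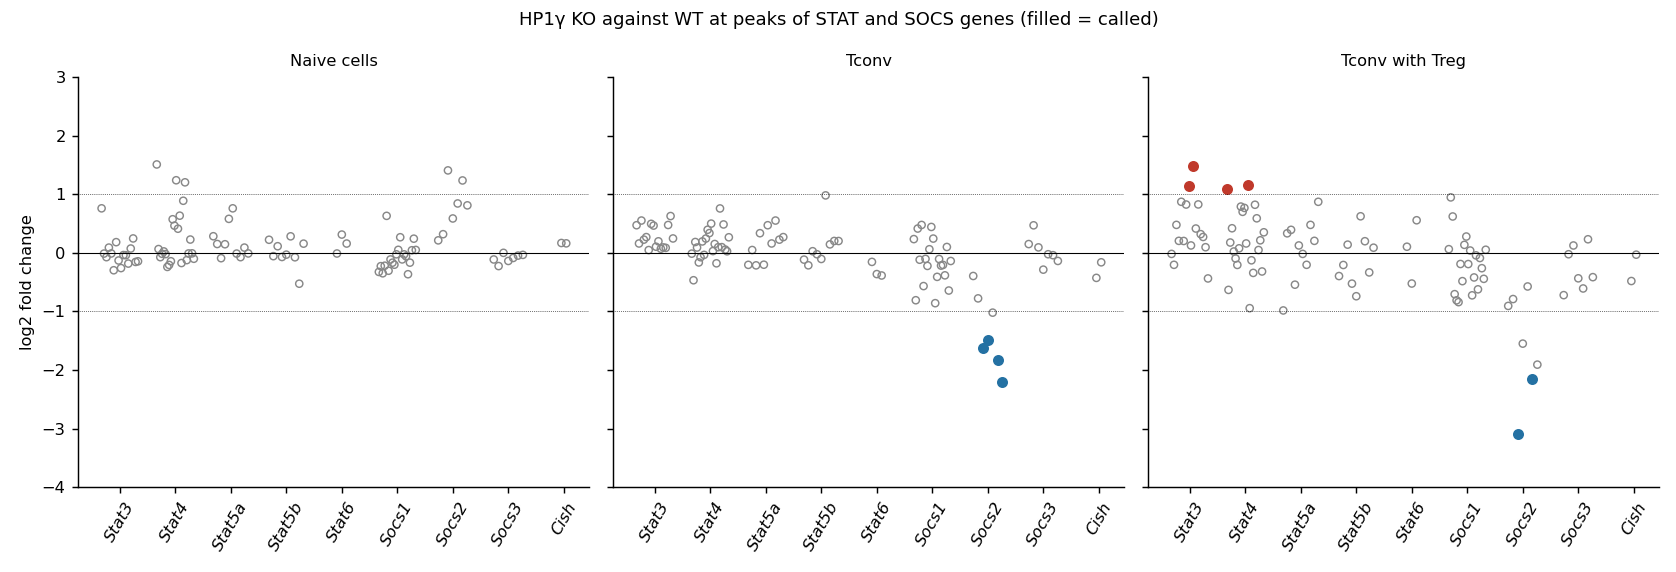
Log2 fold change of each peak between HP1γ KO and WT (vertical axis) by gene (horizontal axis) in naive cells, Tconv and Tconv with Treg. Filled points were called (red higher, blue lower), dotted lines mark 1 and -1, and the Socs2 points lie above 0 in naive cells and below 0 in the other panels.

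At the Socs2 peak at -22.2 kb, HP1γ KO Tconv held 10.7, 9.40 and 10.5 CPM and WT Tconv 17.2, 50.6 and 29.5 CPM. The KO values lay close together and below all WT values, which were far apart (-1.63 ± 0.36, adjusted p = 0.013). The other peaks called were at -23.6 kb (-1.48 ± 0.41, adjusted p = 0.039), at -30.9 kb (-1.82 ± 0.46, adjusted p = 0.027) and at -32.0 kb (-2.21 ± 0.54, adjusted p = 0.016). These calls depended on single libraries and on the test: without WT replicate 2, the highest, the value of the -22.2 kb peak was -1.16 (adjusted p = 0.093), without KO replicate 3 it was -1.65 (adjusted p = 0.069), and DESeq2 gave -1.69 (adjusted p = 0.12).

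The same peak was called in cells with Treg. HP1γ KO cells held 0.545, 2.53 and 1.89 CPM and WT cells 6.23, 22.9 and 13.4 CPM, an 8.50-fold lower level in KO (-3.09 ± 0.61, adjusted p = 0.0024). The groups did not overlap, and the call held without each of the 6 libraries in turn, with values from -3.69 to -2.42. The peak at -30.9 kb was called as well (-2.16 ± 0.76), with an adjusted p of 0.050 that lies just under the threshold before rounding, and held 0.528, 1.23 and 1.81 CPM in KO and 2.67, 7.77 and 4.95 CPM in WT. With the replicate number as a block, which was paired here by the libraries' correlations, the value at -22.2 kb was -3.11 ± 0.34 (adjusted p = 6.8e-06), and the peaks at -23.6 and -32.0 kb were called too, which brought the count for Socs2 to 4. The labels do not say that equal replicate numbers are linked, and the pairing was taken from the same counts that were tested. Under the block 4 of the 91 peaks were called higher and 4 lower, against 7.46% and 7.98% of all peaks.

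At the Socs2 promoter peak the differences were under 2-fold. In Tconv it held 79.9, 56.4 and 66.0 CPM in KO and 112, 140 and 100 CPM in WT (-0.78 ± 0.15, adjusted p = 0.0047), and with Treg 34.2, 46.9 and 39.3 CPM in KO and 59.8, 83.3 and 67.3 CPM in WT (-0.79 ± 0.16, adjusted p = 0.0027). Both differences passed the threshold on p but not that on size, so neither was called, and no KO library overlapped a WT library. In naive cells the order was the opposite, with 21.6, 23.7 and 24.5 CPM in KO and 21.0, 18.9 and 17.8 CPM in WT (0.32 ± 0.18, adjusted p = 0.65), a difference that did not pass. The change of the KO effect between naive cells and Tconv, tested as an interaction, was -1.10 ± 0.23 on the log2 scale with an adjusted p of 0.20.

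Cish followed the same order at a smaller size. HP1γ KO Tconv held 305, 349 and 351 CPM at its promoter peak and WT Tconv 429, 501 and 428 CPM (-0.43 ± 0.12, adjusted p = 0.038). With Treg KO cells held 185, 247 and 269 CPM and WT cells 290, 397 and 299 CPM (-0.48 ± 0.12, adjusted p = 0.0090). The KO and WT libraries did not overlap in either condition, and both differences were under the threshold on size.

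**Figure D4:**
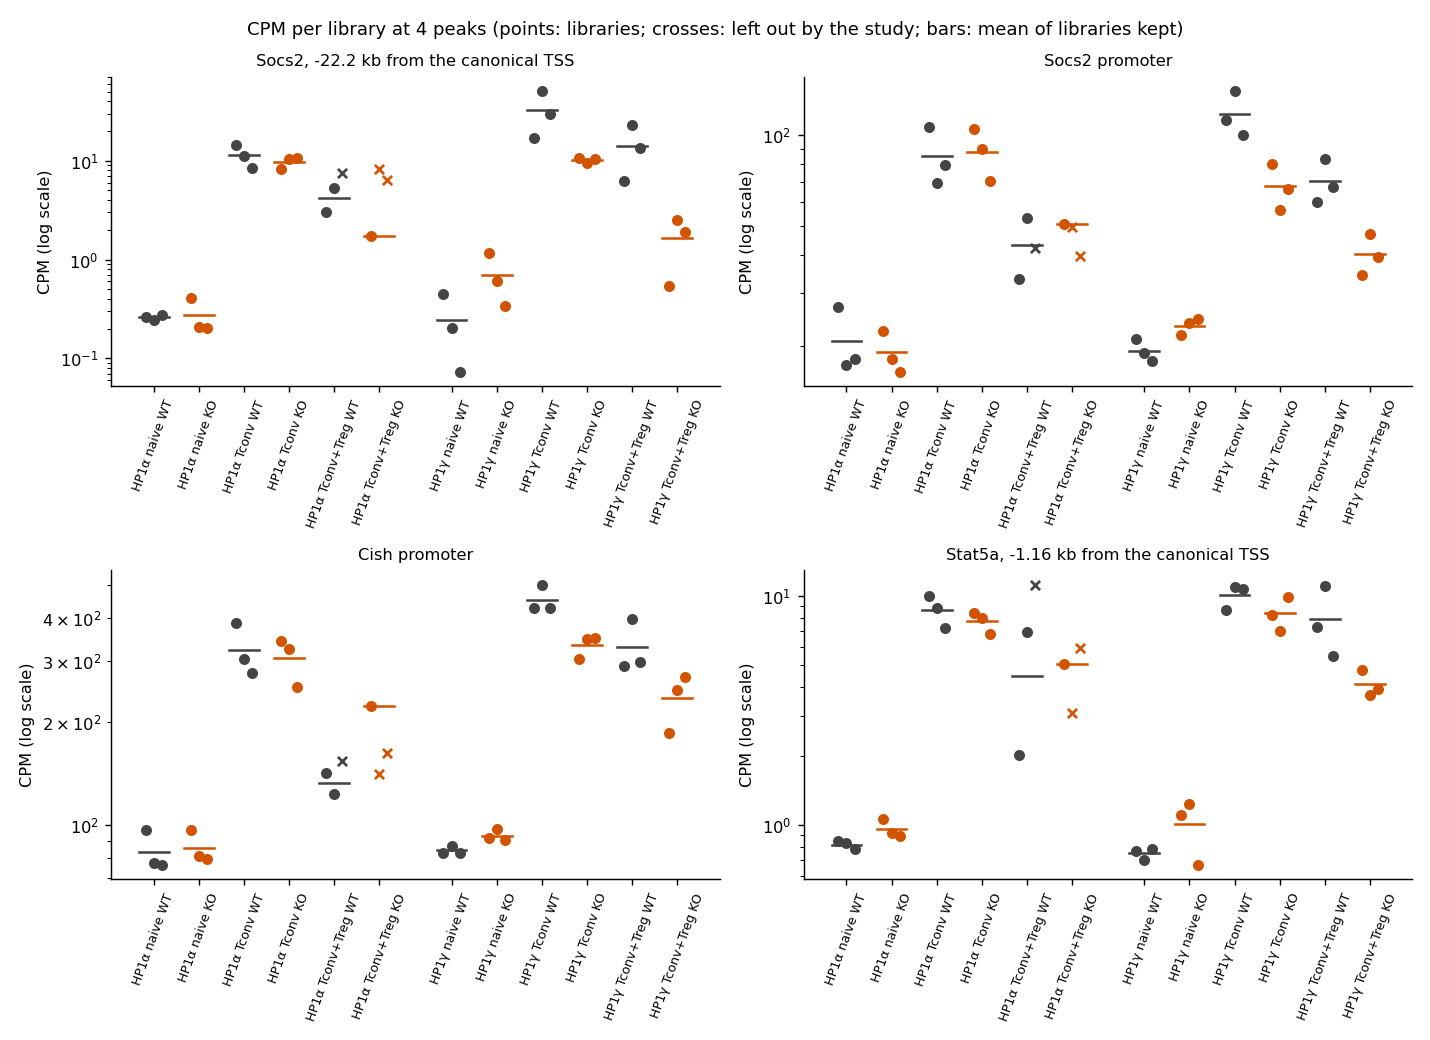
CPM per library on a log scale (vertical axis) in the 12 groups (horizontal axis) at the Socs2 peak at -22.2 kb, the Socs2 promoter, the Cish promoter and the Stat5a peak at -1.16 kb. Points are libraries (gray WT, orange KO), crosses are libraries left out by the study and bars are means of the libraries kept, and at the first peak the 3 HP1γ KO libraries with Treg (0.545 to 2.53 CPM) lie below the 3 WT libraries (6.23 to 22.9 CPM).

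The peaks that were higher in HP1γ KO cells with Treg were intronic. At the Stat3 peak 18.1 kb past the TSS (chr11:100811881-100812700), KO cells held 13.0, 3.74 and 7.61 CPM and WT cells 3.98, 2.09 and 2.28 CPM (1.48 ± 0.36, adjusted p = 0.0077). KO replicate 2 lay below WT replicate 1, so the groups overlapped, while KO exceeded WT within each of the 3 replicate numbers, and with the block the value was 1.51 ± 0.18 (adjusted p = 1.3e-05). At 26.7 kb (chr11:100803331-100804140) KO cells held 11.8, 6.32 and 9.37 CPM and WT cells 5.34, 3.24 and 3.33 CPM (1.14 ± 0.28, adjusted p = 0.0080), with no overlap. Without KO replicate 1 the values were 0.88 (adjusted p = 0.055) and 0.89 (adjusted p = 0.059), and without WT replicate 2 they were 1.24 (adjusted p = 0.073) and 0.96 (adjusted p = 0.076), so both calls ended without either library.

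In Stat4, the intron peak at 58.6 kb (chr1:52105481-52106460) held 14.1, 7.71 and 14.0 CPM in HP1γ KO cells with Treg and 5.40, 5.55 and 4.66 CPM in WT cells (1.16 ± 0.22, adjusted p = 0.0017). The peak at -11.1 kb from the canonical TSS, in an intron of a longer transcript (chr1:52035951-52036720), held 9.29, 4.58 and 6.73 CPM in KO and 2.67, 4.33 and 2.67 CPM in WT (1.09 ± 0.31, adjusted p = 0.019). In both the KO and WT libraries did not overlap. Without KO replicate 1 the values were 0.99 (adjusted p = 0.013), just under the threshold on size, and 0.77 (adjusted p = 0.14), and without WT replicate 1 the second was 0.90 (adjusted p = 0.087). In Tconv without Treg the same 4 peaks of Stat3 and Stat4 differed between KO and WT by -0.01 to 0.47 on the log2 scale, and none was called there.

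The central part of the Stat3 peak at 18.1 kb is printed because it is the peak of the gene with the smallest p in this comparison, with its AP-1 palindrome (TGANTCA) in capitals. It holds no TTCNNNGAA. Plus strand, GRCm39, intron of Stat3, which is read from the minus strand:
chr11:100812141-100812440: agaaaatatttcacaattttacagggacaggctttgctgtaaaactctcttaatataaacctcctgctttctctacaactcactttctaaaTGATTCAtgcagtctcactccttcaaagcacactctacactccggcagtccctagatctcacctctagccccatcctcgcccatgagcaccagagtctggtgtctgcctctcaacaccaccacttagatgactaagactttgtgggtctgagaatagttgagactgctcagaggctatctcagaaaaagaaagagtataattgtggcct

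**Figure D5:**
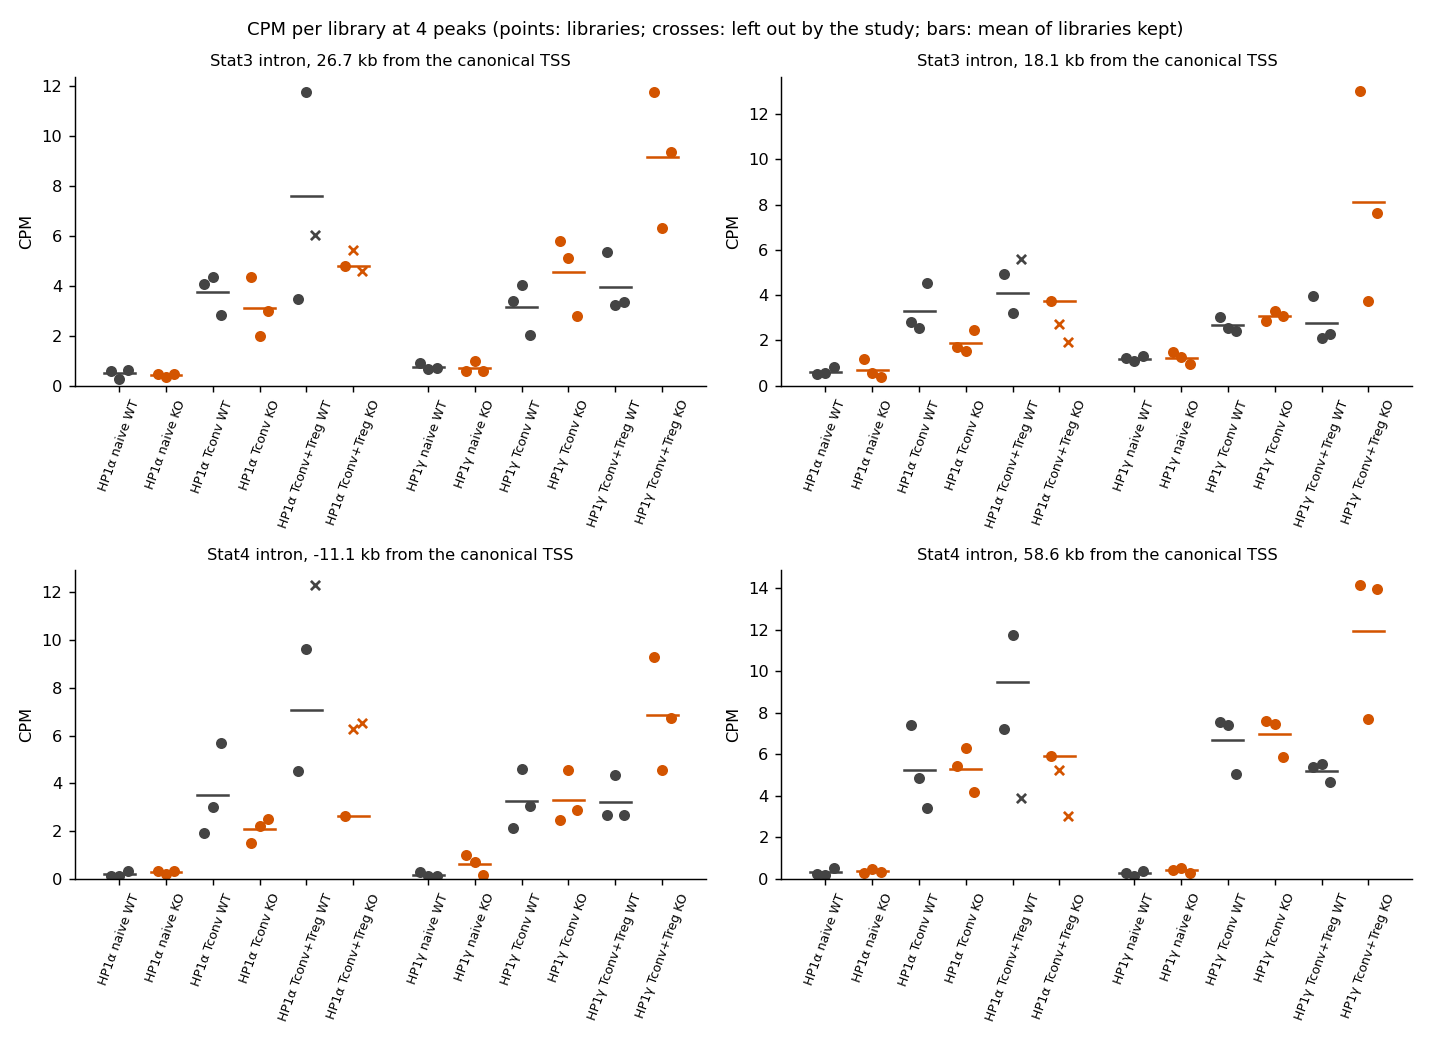
CPM per library (vertical axis, linear from 0) in the 12 groups (horizontal axis) at the 2 Stat3 and 2 Stat4 intron peaks called higher in HP1γ KO with Treg. Points are libraries (gray WT, orange KO), crosses are libraries left out by the study and bars are means of the libraries kept, and HP1γ KO replicate 1 with Treg is the highest HP1γ library in each panel.

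The Stat5a peak at -1.16 kb held 4.73, 3.70 and 3.94 CPM in HP1γ KO cells with Treg and 7.30, 11.1 and 5.47 CPM in WT cells (-0.98 ± 0.23, adjusted p = 0.0058), without overlap and just under the threshold on size. The promoter peaks of Stat3, Stat4, Stat5a and Socs3 had small positive values in the same comparison, 0.32 ± 0.08 (adjusted p = 0.0078), 0.42 ± 0.14 (adjusted p = 0.042), 0.33 ± 0.11 (adjusted p = 0.037) and 0.23 ± 0.07 (adjusted p = 0.028), and none was called.

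The presence of Treg was then compared with their absence within each genotype. HP1γ WT cells had no called peak among the 91, where 98 of all peaks were called (0.137%); 17 had an unadjusted p under 0.05, where 20.3% of all peaks did. With the replicate number as a block, again paired by correlation, 2 Socs2 peaks were called lower and no peak of the 91 higher (0.389% and 0.22% of all peaks under the block), at -22.2 kb (-1.24 ± 0.20, adjusted p = 0.016) and at -30.9 kb (-1.33 ± 0.27, adjusted p = 0.035). HP1γ KO cells had 3 peaks called higher and 2 lower with Treg (background 6.1% and 2.06%). The peak at -22.2 kb fell from 10.7, 9.40 and 10.5 CPM to 0.545, 2.53 and 1.89 CPM (-2.68 ± 0.62, adjusted p = 0.0079), and without KO replicate 1 with Treg it was -2.18 (adjusted p = 0.061). The Stat5a peak at -1.16 kb fell from 8.29, 7.02 and 9.92 CPM to 4.73, 3.70 and 3.94 CPM (-1.07 ± 0.21, adjusted p = 0.0029), and the value was -0.997 without KO replicate 2 with Treg and -0.91 without KO replicate 3 of Tconv. The 3 higher peaks were the Stat3 peaks at 26.7 kb (1.06 ± 0.26, adjusted p = 0.010) and 18.1 kb (1.41 ± 0.33, adjusted p = 0.0082) and the Stat4 peak at -11.1 kb (1.12 ± 0.29, adjusted p = 0.015). Each of these calls ended without KO replicate 1 with Treg, with values of 0.80, 0.81 and 0.79 (adjusted p = 0.10, 0.088 and 0.16). Without KO replicate 3 of Tconv the Stat3 peak at 26.7 kb had 0.72 (adjusted p = 0.094) and the Stat4 peak 1.03 (adjusted p = 0.078), and without KO replicate 1 of Tconv the Stat4 peak had 0.98 (adjusted p = 0.069).

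In HP1α WT cells, 7 peaks were called lower with Treg and none higher (background 1.84% and 4.92%), and the median over the 91 was -0.31, against 0.10 over all peaks. Cish fell at its promoter from 386, 304 and 278 CPM to 142 and 123 CPM in the 2 libraries kept (-1.25 ± 0.20, adjusted p = 0.0013), and the library left out held 153 CPM. Socs2 fell at 3 peaks, among them the promoter, from 106, 69.3 and 79.6 CPM to 33.4 and 52.9 CPM (-1.22 ± 0.31, adjusted p = 0.024), and the peak at -22.2 kb, from 14.4, 11.2 and 8.39 CPM to 3.0 and 5.35 CPM (-1.92 ± 0.40, adjusted p = 0.0065), with 42.3 and 7.55 CPM in the library left out. The other 3 were the Stat5a peak at -1.16 kb (-1.80 ± 0.40, adjusted p = 0.0099), the Stat4 peak at -3.84 kb (-1.16 ± 0.34, adjusted p = 0.044) and a Stat5b peak 36.0 kb past the TSS (-1.35 ± 0.32, adjusted p = 0.016).

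These calls ended without one library. When WT replicate 1 with Treg was left out, the 1 library that remained held 1.49 M reads, 0 of the 91 peaks were called and the adjusted p was 0.97 at each, with log2 fold changes of -1.44 at Cish and -1.29 at the Socs2 peak at -22.2 kb, -0.76 at the Socs2 promoter and -0.47 at Stat5a. With all 18 HP1α libraries the Cish value was -1.20 (adjusted p = 0.0062), the Socs2 values were -1.55 (adjusted p = 0.039) and -1.18 (adjusted p = 0.018), and that of Stat5a was -0.98 (adjusted p = 0.10), where the library left out held 11.2 CPM beside 2.03 and 6.95 CPM. HP1α KO cells had 1 library kept, which has no spread of its own and was assumed to vary like the other groups. They had no called gain and 1 called loss with Treg (background 0.264% and 0.284%), the Socs2 peak at -22.2 kb, which held 8.23, 10.4 and 10.6 CPM without and 1.73 CPM with Treg (-2.45 ± 0.32, adjusted p = 0.0015). The 2 libraries left out held 8.23 and 6.39 CPM, near the values without Treg, and the fit of all 18 gave -1.48 (adjusted p = 0.020).

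HP1α KO and WT were close in naive cells and Tconv. No peak of the 91 was called in either, where 4 of all peaks (0.00559%) and 15 (0.021%) were, and 0 and 6 of the 91 had an unadjusted p under 0.05, where 1.17% and 4.82% of all peaks did. The Socs2 peak at -22.2 kb held 8.23, 10.4 and 10.6 CPM in KO Tconv and 14.4, 11.2 and 8.39 CPM in WT Tconv, which overlapped. With Treg, 1 KO library was set against 2 WT libraries, and the errors and p-values again take its spread from the other groups. There 2 peaks were called higher and 1 lower (background 0.218% and 1.42%). The Stat5b peak at 36.0 kb held 24.8 CPM in KO and 7.59 and 15 CPM in WT (1.52 ± 0.35, adjusted p = 0.033), the Stat4 peak at -3.84 kb held 16.2 CPM and 6.16 and 4.28 CPM (1.46 ± 0.36, adjusted p = 0.046), and a Socs1 peak 31.3 kb downstream held 1.26 CPM and 4.13 and 7.48 CPM (-1.86 ± 0.46, adjusted p = 0.049). At these peaks the KO libraries left out held 12 and 14.8, 8.03 and 8.32, and 5.13 and 4.82 CPM, and the WT library left out 6.47, 3.45 and 4.75 CPM. With all 18 libraries none of the 3 was called, with values of 1.35 (adjusted p = 0.11), 1.35 (adjusted p = 0.12) and -0.95 (adjusted p = 0.47), so the first 2 differences were nearly as large and the third was smaller.

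Whether the genotype changed the response itself was tested by interaction terms. No peak of the 91 was called for genotype and Treg in the HP1α line (background 0.0461%) or in the HP1γ line (0.0014%), or for genotype and activation in the HP1γ line (0.014%), and DESeq2 called 1 in the last. An unadjusted p under 0.05 was found for 16, 14 and 10 of the 91, where 10.3%, 12.8% and 9.51% of all peaks had one. At the Socs2 peak at -22.2 kb the HP1γ interaction values were -1.46 ± 0.77 for Treg (adjusted p = 0.43) and -3.04 ± 1.84 for activation (adjusted p = 0.63). The difference between KO and WT at this peak was thus not shown to depend on Treg or on activation.

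The other genes of the pathway, 34 genes for kinases, receptors, inhibitors and other members with 348 peaks, were counted in the same way. Between HP1γ KO and WT, Tconv had 2 calls higher and 11 lower among the 348 (background 1.69% and 1.66%), and cells with Treg 21 and 38 (6.48% and 5.38%). Receptor genes, with 199 peaks, held 8 of the higher and 29 of the lower calls with Treg, beside the same background, and their median was -0.33, against -0.02 over all peaks. Il2ra, which encodes the interleukin-2 receptor α chain whose signal runs through STAT5, was lower in KO at -6.53 kb (-1.53 ± 0.30, adjusted p = 0.0024) and at 16.8 kb (-1.35 ± 0.26, adjusted p = 0.0021), and higher at 48.5 kb (2.16 ± 0.51, adjusted p = 0.0050). Il12rb2, which encodes the interleukin-12 receptor chain upstream of STAT4, was lower at its promoter (-1.12 ± 0.27, adjusted p = 0.0070) and higher at -19.6 kb (1.19 ± 0.25, adjusted p = 0.0027). Between HP1α KO and WT with Treg, 4 of the 348 were higher and 4 lower (background 0.218% and 1.42%). In Tconv against naive cells, 97 were higher and 60 lower in HP1γ WT (24.5% and 22.0%) and 92 and 51 in HP1α WT (24.9% and 17.5%). With against without Treg gave 7 higher and 16 lower in HP1α WT (4.92% and 1.84%) and none in HP1γ WT (0.137% in both directions together). The peaks of Il2ra and Il12rb2 named here were chosen after their values were seen.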

How the data were processed

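ATAC-seq read counts per peak were deposited by the authors as 1 table of 36 libraries. The submitters' processing notes name Trim Galore 0.6.7, BWA, SAMtools, featureCounts 2.0.3 and GRCm39. Duplicates were removed, HMMRATAC peaks of single samples were merged, and reads could count for several peaks. Of 71512 intervals, 3 without width were dropped. From these counts, edgeR 4.0.16 (R 4.3.3) with TMM scaling and a filter on low counts gave quasi-likelihood tests for 17 comparisons, with 15 HP1α libraries (the 3 that the study left out stayed out) and 18 HP1γ libraries. CPM (counts per 1e6 reads in peaks) was scaled over all 36. SE is the log2 fold change divided by the root of F. Fits were tested on simulated data with changes larger than the threshold on size, at peaks with enough reads. Calls near the threshold or at near-empty peaks were not tested in this way. The replicate number was taken to pair samples where all 3 correlations of deviations were over 0.1. This held for HP1α KO and WT naive cells (0.25 to 0.50), KO and WT of the HP1γ line with Treg (0.15 to 0.32), and its WT with and without Treg (0.20 to 0.29). Members and lists were chosen with earlier results of these data known. The 26 peaks named by rule are each gene's promoter peak, the called peak with the smallest p of each gene in each KO against WT comparison, and the 3 such peaks in each direction in the other comparisons. All others were chosen after their values were seen. Alternatives covered scaling, filters, DESeq2 1.42.0, offsets, depth, the replicate block, libraries left out and the choice of samples. The AP-1 search and the earlier quasi-likelihood method were added after the data were seen.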

Additional observations from a re-analysis of the deposited data

How the results depend on the processing

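Of 195 alternative counts of called peaks, 169 stayed within 1.5 times the reported count, and of 1417 alternative values of 86 calls at named peaks, 1312 kept their direction and side of the threshold, 104 lost the call and 1 turned its direction. The counts of HP1α KO against WT with Treg (reported 3) were the least stable. They were 0 with the earlier quasi-likelihood method, with log2 depth as a covariate, with only the groups compared, with all 18 libraries, and with all 18 less any 1 of the WT replicates or of KO replicates 1 and 3. With the replicate block this count was 7, and with the block and log2 depth 0. For HP1α WT with against without Treg (7), log2 depth, the block with log2 depth, and only the groups compared each gave 3. For HP1α KO with against without Treg (1), RLE factors, the replicate block and all 18 libraries gave 2, the block with log2 depth 3, and the earlier method and only the groups compared 0. For HP1γ KO against WT, DESeq2 gave 1 in naive cells (0), and in Tconv (4) the earlier method and only the groups compared gave 0 and DESeq2 2. With Treg (6), the block with log2 depth gave 12 and only the groups compared 3. For HP1γ WT with against without Treg (0) the replicate block gave 2, with or without log2 depth. For HP1γ KO with against without Treg (5) the earlier method gave 3 and only the groups compared 1, and for the interaction of genotype and activation (0) DESeq2 gave 1. The Socs1 peak at 31.3 kb turned to 0.17 in HP1α KO against WT with Treg with all 18 libraries less KO replicate 1. The cause was not tested. Leaving out each library in turn gave 0 to 1 calls for HP1α KO against WT in Tconv and 0 to 1 with Treg, 0 to 8 for HP1α WT and 1 to 2 for HP1α KO with against without Treg, 0 to 6 and 2 to 10 for HP1γ KO against WT in Tconv and with Treg, 0 to 1 for HP1γ WT and 1 to 8 for HP1γ KO with against without Treg, and 0 to 1 for each HP1γ interaction. The low depth of the HP1α libraries with Treg limits what those comparisons can show.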
